A study of Bos taurus with 79 samples.

Results

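The effect of an early pregnancy on the day 16 endometrium at high progesterone was read by setting pregnant heifers (PH, 5 arrays) against cyclic heifers (CH, 5 arrays). These were the 10 arrays, of 79 in the series, whose titles give day 16 and high progesterone. Of the 24016 probe sets tested, 13292 carried 1 gene symbol, and these stood for 9155 named genes, each represented by its brightest probe set. All animals were cross-bred beef heifers after estrous synchronization, either kept as cyclic controls or inseminated and found to be pregnant at slaughter. PH and CH heifers both carried an intravaginal progesterone-releasing device from day 3 until slaughter. Pregnant (PN) and cyclic (CN) heifers of day 16 with normal progesterone, 5 arrays each, and the PH and CH heifers of day 13, 5 arrays each, served for comparison. RNA came from strips of whole endometrium, with 1 array per sample, so that fewer cells of a type and less RNA per cell cannot be told apart.

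In cattle the elongating conceptus secretes interferon tau, a type I interferon that acts on the uterine lining and signals that a conceptus is present. In the absence of that signal the oxytocin receptor is induced in the endometrium, oxytocin then drives pulses of prostaglandin F2 alpha, and the corpus luteum, the source of progesterone, regresses. Endometrial glands and surface epithelium also secrete histotroph, the mixture of proteins, sugars, amino acids and lipids that feeds the conceptus before it attaches.

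The 10 arrays had medians between 4.92 and 5.07 and SDs between 2.82 and 2.88 on the log2 scale. PH 5 and CH 2 lay farthest from their group means (SD of deviations 0.398 and 0.401), and PH 5 had the weakest interferon response of the PH arrays. The epithelial marker EPCAM averaged 13.27 in PH and 13.46 in CH, and the stromal marker VIM 12.52 in PH and 12.44 in CH. Differences are pregnant minus cyclic on the log2 scale ± SE, group levels are mean log2 ± SD (n = 5 each), and p-values are limma's, adjusted over all probe sets. Both SE and p-value rest on the spread within all 16 groups of the series, between arrays that the labels call biological replicates. A group mean under 3 lies near the floor of the values, where a difference between groups is a lower limit.

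In PH 1868 probe sets changed (7.78% of those tested), 1039 upward and 829 downward, of which 400 and 144 changed at least 2-fold. Among named genes 597 rose (6.52%) and 301 fell (3.29%). The median difference of the risers was 0.749, and that of the fallers -0.589. For 204 of the risers and 74 of the fallers the 5 PH arrays lay all on one side of the 5 CH arrays, as they did for 2.69% (above) and 1.86% (below) of all named genes and 1.69% and 2.07% of all probe sets. The spread behind these tests was shared by all 16 groups of the series: a fit of the 10 arrays alone called 120 probe sets. The count was 1191 without CH 3 and 944 without PH 4.

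**Figure D1:**
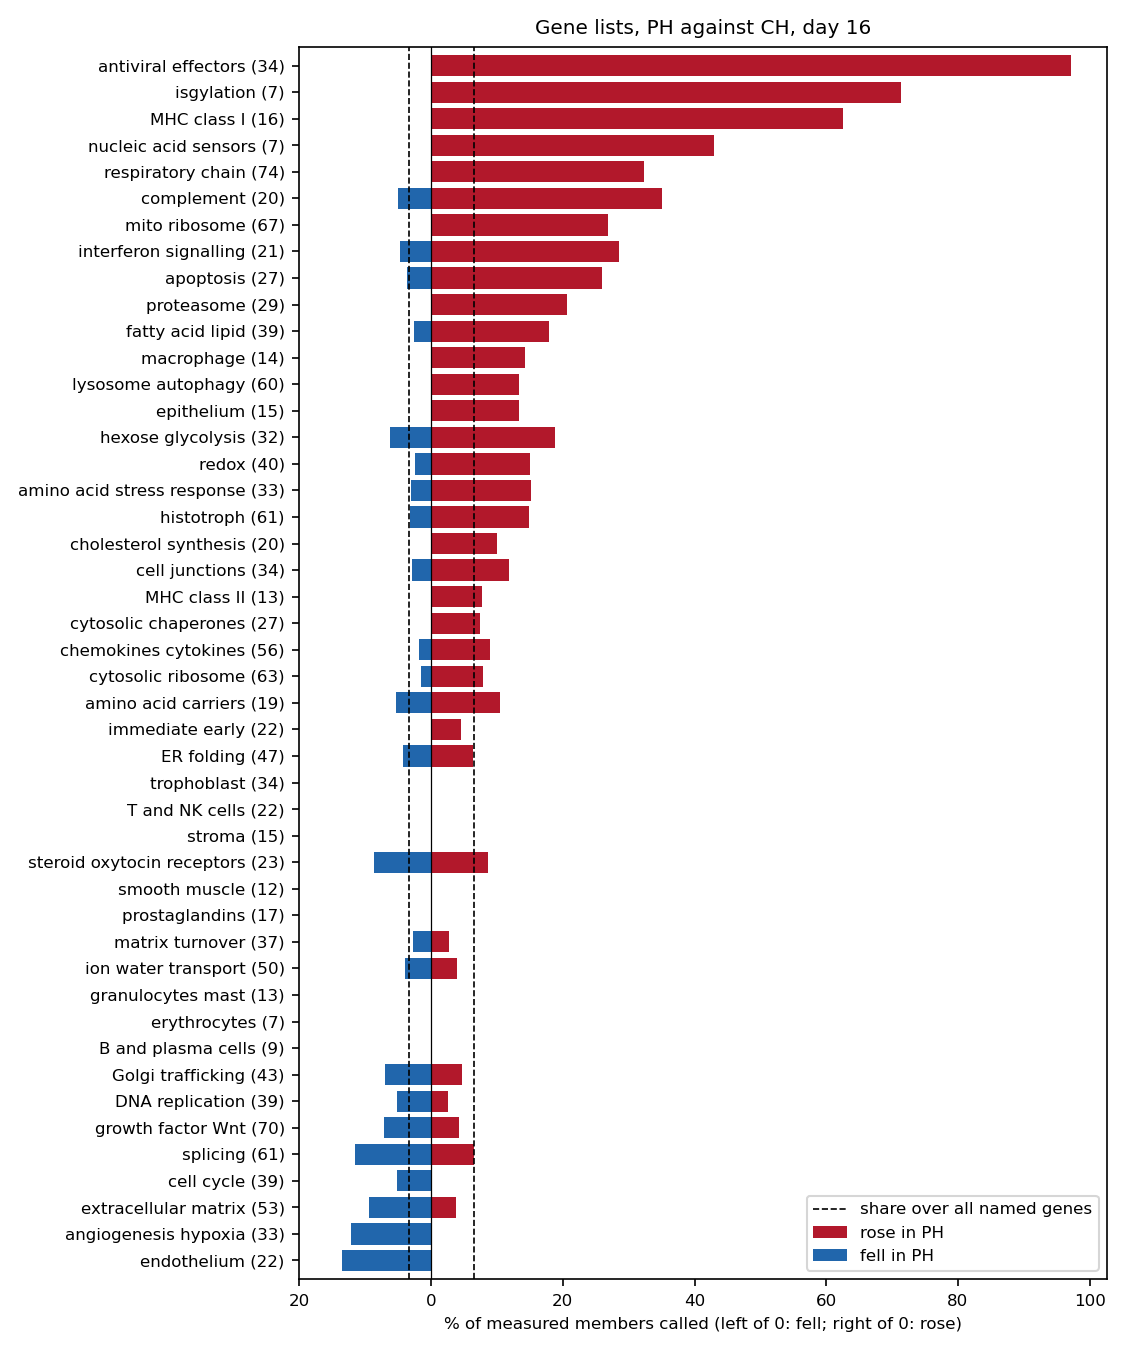
Share of each gene list's measured members (number in brackets) that rose in PH (red, right of 0) or fell in PH (blue, left of 0) on day 16, in percent, with dashed lines at the shares over all named genes (6.52% and 3.29%). Antiviral effectors stand at 97.1% risen, and no member of the smooth muscle, stroma, trophoblast, T and NK cell or prostaglandin lists was called on its brightest probe set.

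Interferon-stimulated genes held the largest differences. Of 34 antiviral effectors measured 33 rose (97.1%, against 6.52% of all named genes) and none fell. Their median difference was 2.50, against -0.0315 over all named genes. In 27 every PH array lay above every CH array, as in 2.69% of all named genes. The one that did not pass, APOBEC3Z1, named after its values were seen, lay near the floor in both groups. MX2 (gene ID 280873), an interferon-induced GTPase that blocks virus replication, read 10.54, 9.46, 10.47, 11.22 and 5.06 in PH 1 to PH 5, against 2.11, 2.74, 2.12, 2.13 and 2.15 in CH 1 to CH 5. The groups did not overlap, although PH 5 stood well below the other PH arrays. The difference of 7.10 ± 0.99 (adjusted p = 5.01e-07) is a lower limit, since CH lay near the floor, and it was 8.17 without PH 5. RSAD2 (viperin), which makes an antiviral nucleotide, read 12.58, 11.08, 12.06, 12.37 and 8.11 in PH, against 3.78, 5.34, 4.84, 5.26 and 5.84 in CH, a rise of 6.23 ± 0.99 (adjusted p = 8.89e-06) with PH 5 again lowest of its group. IFIT2, a protein that binds viral RNA and restrains its translation, read 10.17, 8.66, 8.52, 9.65 and 3.44 in PH, against 2.87, 2.76, 2.90, 2.90 and 2.88 in CH. PH 5 was here hardly above the CH arrays, while the other PH arrays were far above them. Its difference was at least 5.22 ± 0.62 (adjusted p = 1.63e-08). IFI44, IFI44L and SAMD9, further interferon-induced restriction genes, rose by 5.30 ± 0.81, 4.69 ± 0.75 and 4.89 ± 0.74. MX1 rose by 3.68 ± 0.84 to 13.16 in PH, against 9.48 in CH.

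The ISG15 conjugation system, which attaches a ubiquitin-like protein to other proteins, rose in 5 of 7 measured members (71.4%, against 6.52% of all named genes). ISG15 itself (gene ID 281871) read 14.52, 13.66, 14.13, 14.36 and 11.67 in PH, against 8.22, 7.61, 7.21, 7.15 and 7.63 in CH. This was a difference of 6.11 ± 1.09 (adjusted p = 7.89e-05), or 68.8-fold, and the groups lay well apart. The activating enzyme UBA7 rose by 3.75 ± 0.62, the conjugating enzyme UBE2L6 by 2.06 ± 0.31, the ligase HERC6 by 1.85 ± 0.29 and USP18, the protease that removes ISG15 and damps interferon signalling, by 4.56 ± 0.74. Of 7 sensors of foreign nucleic acid 3 rose (42.9%): OAS1X, DHX58 and PNPT1. OAS1X, an oligoadenylate synthetase, read 4.25, 9.92, 9.09, 10.33 and 7.71 in PH, against 4.23, 2.51, 2.26, 2.35 and 2.26 in CH. Its difference was 5.54 ± 1.09 (adjusted p = 0.000378), but PH 1 lay barely above CH 1. DHX58, a regulator of the RIG-I sensors, rose by 3.52 ± 0.47.

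Among 21 genes of interferon signalling 6 rose (28.6%) and 1 fell (4.76%), against 6.52% and 3.29% of all named genes. The faller was the receptor kinase JAK1 (-0.37 ± 0.09, adjusted p = 0.00313, named after its values were seen). The risers were largely the transcription factors that carry or amplify the signal. IRF7, which drives interferon-dependent transcription, read 10.27, 8.83, 9.71, 9.63 and 6.74 in PH, against 5.65, 5.57, 5.58, 5.67 and 5.45 in CH, without overlap and with PH 5 lowest of its group. It rose by 3.45 ± 0.46 (adjusted p = 1.87e-07) on its brightest probe set and by 3.57 on the next one, while the dimmest one, near the floor, gave -0.04. IRF9 rose by 2.87 ± 0.56, STAT2, its partner in the ISGF3 complex, by 1.61 ± 0.26 and NMI, an interferon-induced partner of STAT proteins, by 1.53 ± 0.20. Of 16 genes of MHC class I antigen presentation 10 rose (62.5%) and none fell, with a median difference of 0.730. TAP1, a subunit of the peptide transporter that loads class I molecules, read 9.65, 8.96, 8.77, 9.58 and 7.54 in PH, against 7.25, 7.03, 7.40, 6.85 and 7.14 in CH, a rise of 1.77 ± 0.34 (adjusted p = 0.000208). The groups did not overlap, and PH 5 exceeded CH 3 by a small margin. The immunoproteasome subunits PSMB8 and PSMB9, which cut proteins into such peptides, rose by 1.44 ± 0.31 and 1.20 ± 0.30, and the proteasome activator subunit PSME2 by 0.84 ± 0.18. MHC class II genes rose in 1 of 13 members (7.69%, against 6.52% of all named genes), BOLA-DMB (1.46 ± 0.38), a call lost without PH 4.

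**Figure D2:**
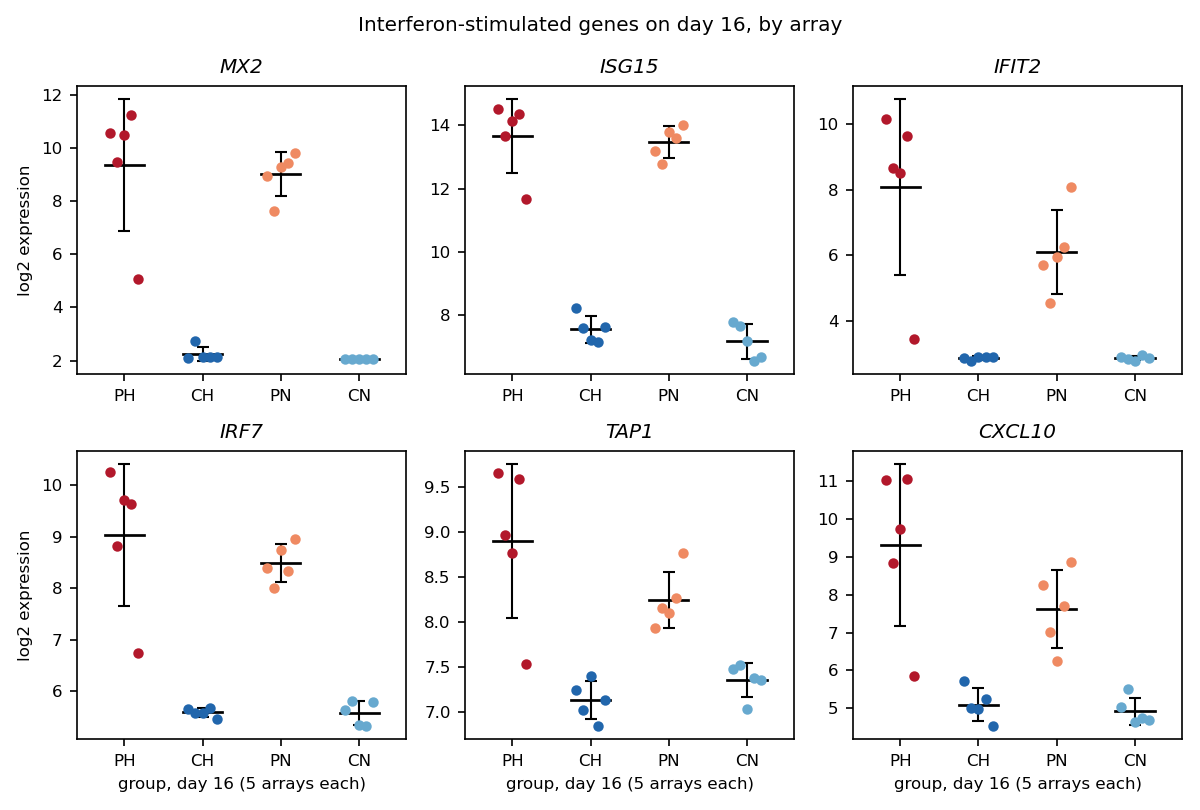
Log2 expression of 6 interferon-stimulated genes on day 16 in each array of PH, CH, PN and CN (points), with group mean and SD (bars). PH 5 is the lowest PH array in each panel, and for MX2 the PH arrays run from 5.06 to 11.22, all above the CH arrays.

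Chemokines and cytokines gave 5 risers and 1 faller among 56 genes measured (8.93% and 1.79%, against 6.52% and 3.29% of all named genes), and the median of the list was -0.0369. CXCL10, an interferon-induced chemokine that draws T and NK cells, read 11.04, 8.84, 9.75, 11.07 and 5.86 in PH, against 5.71, 5.01, 4.97, 5.25 and 4.53 in CH, a rise of 4.22 ± 0.83 (adjusted p = 0.000378) in which PH 5 lay just above CH 1. IDO1, which breaks down tryptophan and restrains T cells, read 8.60, 6.54, 6.13, 8.87 and 3.50 in PH, against 3.73, 3.05, 3.15, 3.15 and 3.21 in CH. Here PH 5 fell within the CH range, and the difference was 3.47 ± 0.67 (adjusted p = 0.000304). The monocyte chemokine CCL8 rose by 3.08 ± 0.72 and the B cell factor TNFSF13B by at least 1.91 ± 0.39, while the receptor IL1R1 fell by 0.94 ± 0.21. Complement genes rose in 7 of 20 members (35.0%) and fell in 1 (5.0%), the inhibitor CD46 (-0.42 ± 0.11, named after its values were seen), and 3 rose without CH 3, CH 5 or PH 4. C4A, the fourth complement component, read 12.11, 11.29, 11.26, 12.04 and 10.45 in PH, against 10.06, 10.06, 9.43, 9.23 and 8.40 in CH, every PH array above every CH array (1.99 ± 0.41, adjusted p = 0.000684). The protease C1R rose by 1.47 ± 0.30. C1QB and C1QC, subunits of the recognition molecule made largely by macrophages, rose by 1.55 ± 0.45 and 1.71 ± 0.48, calls that ended without CH 3, CH 5 or PH 4.

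Markers of immune cells were read beside these genes. Of 14 macrophage markers 2 rose (14.3%, against 6.52% of all named genes), C1QB and C1QC, and 12 differences were positive, with a median of 0.487. The mean of the list averaged 6.09 in PH and 5.53 in CH, and ran from 5.25 to 6.46 in PH and from 5.16 to 6.30 in CH. CD14 and CD68, the 2 markers with negative differences, differed by -0.43 ± 0.39 and -0.57 ± 0.45, and CSF1R by 0.30 ± 0.33, none past the threshold. None of 22 T and NK cell markers, 9 B and plasma cell markers or 13 granulocyte and mast cell markers was called in limma's test. CD3G, a T cell receptor subunit, averaged 4.05 in PH and 4.26 in CH, and MS4A1 and CD79A of B cells lay near the floor in both. How far a change in the number of macrophages entered the complement values was not tested.

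The oxytocin receptor had the largest fall of any named gene past the threshold. OXTR (gene ID 281371) read 2.94, 2.64, 3.22, 4.05 and 5.82 in PH, against 5.61, 8.76, 8.26, 5.07 and 8.50 in CH. The PH arrays were low except PH 5, which exceeded CH 1 and CH 4, so the groups overlapped. OXTR fell by 3.51 ± 0.82 (adjusted p = 0.0031), or 11.4-fold, and by 4.03 without PH 5. Of 23 receptors and modifiers of steroid and oxytocin signalling 2 rose and 2 fell (8.7% each, against 6.52% and 3.29% of all named genes). The progesterone receptor PGR averaged 2.41 in PH and 2.55 in CH and the estrogen receptor ESR1 2.13 in PH and 2.30 in CH, both near the floor and neither past the threshold (adjusted p = 0.82 and 0.65). PGRMC1, a membrane-associated progesterone-binding protein, read 11.62, 11.88, 12.03, 12.56 and 11.71 in PH, against 11.47, 11.45, 11.05, 11.45 and 11 in CH, all PH arrays above all CH arrays (0.67 ± 0.14, adjusted p = 0.000683), although a dimmer second probe set differed by -0.47 (adjusted p = 0.32). FKBP5, a co-chaperone of steroid receptors that progestins and glucocorticoids induce, read 6.2, 6.15, 6.0, 6.2 and 6.07 in PH, against 6.40, 5.41, 2.63, 3.91 and 2.75 in CH. The PH arrays were nearly equal and the CH arrays widely spread, and the rise of 1.90 ± 0.55 (adjusted p = 0.0185) lost its call without CH 3, CH 4, CH 5 or PH 4. At normal progesterone FKBP5 ran from 5.72 to 6.89 in PN and from 5.52 to 6.74 in CN, so the low values were those of CH. NR2F1, a nuclear receptor of the COUP-TF family, fell by 0.91 ± 0.21. None of 17 prostaglandin genes was called. PTGS2, the inducible cyclooxygenase, averaged 9.95 ± 0.81 in PH and 9.72 ± 1.47 in CH (0.23 ± 0.59, adjusted p = 0.845).

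Among 61 genes of histotroph and its response to progesterone, drawn partly from published work on cattle and sheep endometrium, 9 rose and 2 fell. Risers made up 14.8%, against 6.52% of all named genes, and fallers 3.28%, near the 3.29% of all named genes. PLET1, a surface protein of placental and epithelial cells, read 8.14, 8.64, 8.14, 11.47 and 2.27 in PH, against 2.87, 2.08, 2.69, 2.27 and 2.44 in CH. PH 5 sat at the CH level, and the other PH arrays stood far above it. The difference was at least 5.26 ± 0.77 (adjusted p = 1.82e-06), and 6.62 without PH 5. DKK1, a secreted Wnt inhibitor, read 10.90, 9.93, 9.70, 10.58 and 8.43 in PH, against 8.54, 4.50, 8.57, 8.03 and 4.77 in CH. It rose by 3.02 ± 0.68 (adjusted p = 0.00202), with CH 2 and CH 5 far below the remaining CH arrays and PH 5 just under CH 1 and CH 3. LGALS9, a galectin, rose by 2.34 ± 0.43. The members that fell were VEGFA, given with the vessel genes, and FGF2, a fibroblast growth factor (-1.10 ± 0.37), whose call was lost without CH 3, CH 4, CH 5, PH 1, PH 3, PH 4 or PH 5.

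Genes of glucose supply moved in part. Of 32 hexose and glycolysis genes 6 rose (18.8%) and 2 fell (6.25%), against 6.52% and 3.29% of all named genes, with a median of 0.273. SLC2A1, the glucose transporter GLUT1, read 11.81, 11.80, 12.03, 12.89 and 11.20 in PH, against 10.67, 10.37, 11.16, 10.08 and 10.83 in CH, every PH array above every CH array (1.32 ± 0.27, adjusted p = 0.000653). Transketolase (TKT) rose by 0.80 ± 0.19 and aldolase A (ALDOA) by 0.73 ± 0.18. PFKM, the muscle form of phosphofructokinase, fell by 1.19 ± 0.32 on its brightest probe set, a call lost without PH 3 or PH 4, and its other probe sets differed by -0.06 and -0.70. In the amino acid and stress response list 5 of 33 rose (15.2%) and 1 fell (3.03%), led by the stress-induced regulator NUPR1 (2.12 ± 0.52), and the aminoacyl-tRNA synthetase SARS1 rose by 0.77 ± 0.17. Fatty acid and lipid genes rose in 7 of 39 (17.9%) and fell in 1 (2.56%). LIPA, the lysosomal lipase, rose by 1.16 ± 0.26.

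A number of genes of mitochondrial energy production rose by small amounts. Of 74 nuclear-coded subunits of the respiratory chain and ATP synthase 24 rose (32.4%, against 6.52% of all named genes) and none fell. Of the 74 differences 67 were positive, and the median of the list was 0.325. By complex, 11 of 37 members of complex I, 1 of 4 of complex II, 5 of 9 of complex III, 3 of 9 of complex IV and 4 of 15 of ATP synthase rose. ATP5F1D, the delta subunit of ATP synthase, read 9.46, 9.09, 9.13, 9.67 and 8.85 in PH, against 8.94, 8.50, 7.90, 7.83 and 8.31 in CH. The groups overlapped only where PH 5 lay under CH 1, and the gene rose by 0.94 ± 0.15 (adjusted p = 5.08e-06), although a second, dimmer probe set differed by -0.08. NDUFA9, of complex I, read 9.20, 8.67, 8.65, 9.23 and 8.34 in PH, against 7.98, 8.41, 8.07, 7.96 and 7.99 in CH. It rose by 0.74 ± 0.12 (adjusted p = 2.17e-05), with PH 5 under CH 2 as its only overlap. UQCRC1 and UQCR11, of complex III, rose by 0.73 ± 0.13 and 0.85 ± 0.18, and NDUFS8 of complex I by 0.68 ± 0.16. The mean of the list was 10.32, 10.29, 10.28, 10.54 and 10.01 in PH 1 to PH 5, against 10.23, 10.14, 9.81, 9.74 and 9.91 in CH 1 to CH 5. PH 5 was the lowest PH array, below CH 1 and CH 2. The number of risers was 12 without PH 4, 15 without CH 3, 37 without CH 1 and 41 without PH 5 and CH 2.

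Mitochondrial ribosome proteins, which translate the few proteins coded in the mitochondrion, rose in 18 of 67 (26.9%, against 6.52% of all named genes). By subunit, 13 of 43 rose in the large and 5 of 24 in the small one, and none fell. The median of the list was 0.305. MRPL12 read 9.06, 8.25, 8.61, 9.20 and 7.77 in PH, against 7.94, 8.18, 7.00, 7.04 and 7.05 in CH, a rise of 1.13 ± 0.21 (adjusted p = 0.000184) in which PH 5 lay below CH 1 and CH 2. MRPS25 read 6.2, 6.03, 6.11, 6.12 and 5.93 in PH, against 5.34, 5.31, 4.45, 5.23 and 4.97 in CH. The PH arrays were close together and all above CH (1.02 ± 0.19, adjusted p = 0.000155). At normal progesterone MRPS25 ran from 5.44 to 5.80 in PN and from 5.85 to 6.05 in CN, so CH was the lowest of the day 16 groups. Without PH 4, 9 members of the list rose. Cytosolic ribosome proteins rose in 5 of 63 and fell in 1, a share near that of all named genes, with a median of 0.0288. Proteasome subunits rose in 6 of 29 (20.7%, against 6.52% of all named genes), with PSMC3 at 0.70 ± 0.13. Only 1 rose without CH 4, 2 without CH 5, 3 without CH 3, 10 without PH 5 and 15 without CH 2. The mean level of the epithelial markers averaged 8.37 in PH and 8.07 in CH, and ran from 8.28 to 8.50 in PH and from 7.73 to 8.35 in CH. Among the CH arrays, CH 1 had the lowest epithelial mean (7.73) and the highest respiratory chain mean (10.23). CH 2 had the highest epithelial mean (8.35) and the next highest respiratory chain mean (10.14). Of 15 markers 2 rose past the threshold (13.3%), CLDN4 (1.56 ± 0.37) and CLDN3 (0.77 ± 0.23, lost without CH 2, CH 5, PH 1, PH 3 or PH 4). CDH1 and KRT7 differed by 0.61 ± 0.22 and 0.58 ± 0.52, and EPCAM by -0.19 ± 0.13, none past the threshold on its brightest probe set. A dimmer second probe set of CDH1 rose by 1.25 ± 0.36 (adjusted p = 0.0185). The part of epithelial cell share in the mitochondrial values was not tested.

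**Figure D3:**
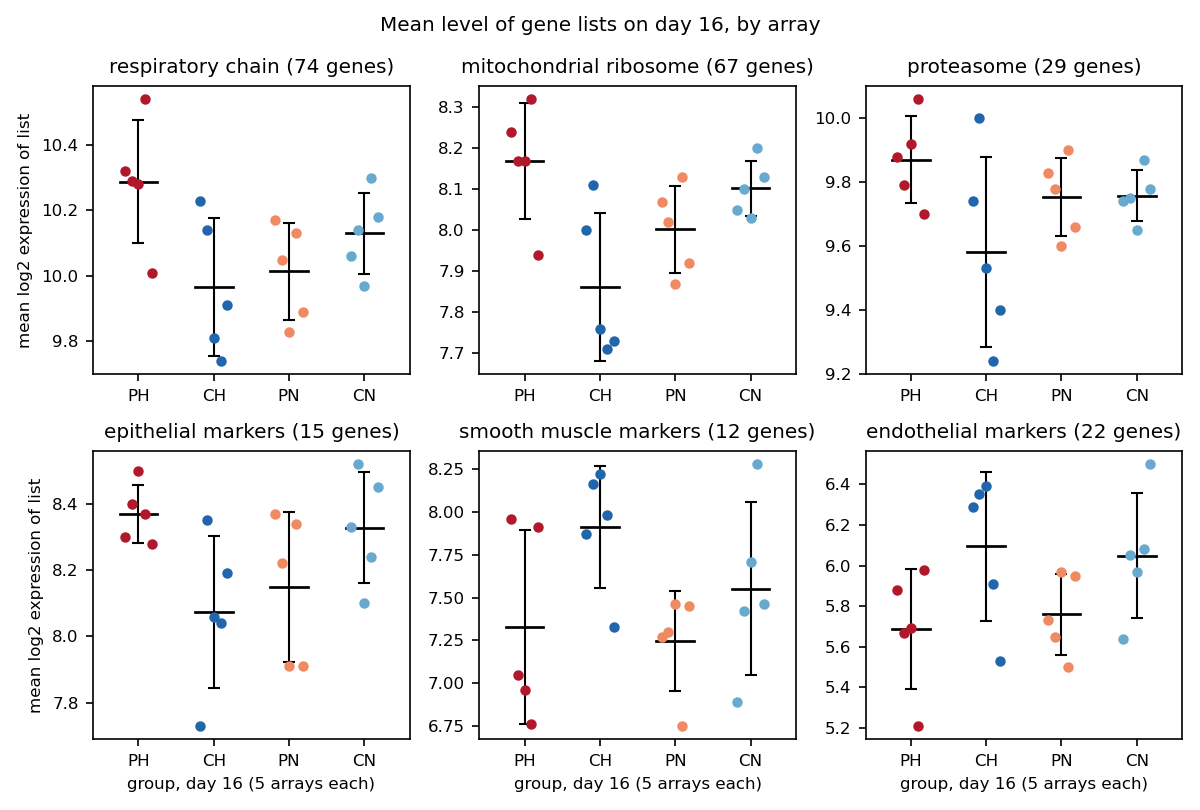
Mean log2 expression over the members of 3 pathway lists and 3 cell type lists in each day 16 array (points), with group mean and SD (bars), for PH, CH, PN and CN. The respiratory chain mean was highest in PH (10.29) and lowest in CH (9.97), with PN (10.01) and CN (10.13) between them.

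Lysosome and autophagy genes rose in 8 of 60 (13.3%, against 6.52% of all named genes) and none fell. Without CH 3, CH 4, PH 3 or PH 4, 5 rose. The sialidase NEU1 rose by 1.37 ± 0.27, the protease CTSZ by 1.26 ± 0.24 and GABARAPL1, of the autophagosome membrane, by 1.20 ± 0.21, each with every PH array above every CH array. The cathepsin CTSB rose by 0.51 ± 0.13 on the brightest of its 6 probe sets, a call lost without PH 4, while the others differed by between -0.88 and 0.13 and did not pass. Among 27 genes of cell death and survival 7 rose (25.9%) and 1 fell (3.7%), CASP6 (-0.46 ± 0.12, named after its values were seen), and 4 rose without PH 4. CASP4, an inflammatory caspase, rose by 2.34 ± 0.38, the adaptor FADD by 1.21 ± 0.22, the killer BAK1 by 1.23 ± 0.30 and the stress gene GADD45B by 1.14 ± 0.23. BAK1 lost its call with the day 16 arrays alone.

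Some vessel genes fell. Of 22 endothelial markers 3 fell (13.6%, against 3.29% of all named genes) and none rose, with a median of -0.336, and 5 fell without CH 5 or without PH 5. Of 33 genes of angiogenesis and hypoxia 4 fell (12.1%) and none rose (median -0.208). VEGFA, the main growth factor of vessels, read 7.16, 7.24, 6.80, 6.43 and 7.68 in PH, against 7.56, 8.56, 9.35, 8.22 and 8.22 in CH. Only PH 5 reached above the lowest CH array, CH 1, and VEGFA fell by 1.32 ± 0.27 (adjusted p = 0.000764). At normal progesterone VEGFA ran from 7.40 to 7.93 in PN and from 6.91 to 7.95 in CN, all below CH 2 to CH 5. FLT1, a VEGF receptor, read 6.34, 6.29, 5.92, 5.70 and 6.59 in PH, against 7.08, 7.23, 7.37, 7.26 and 6.69 in CH, and fell by 0.96 ± 0.18 (adjusted p = 0.000168) with every PH array below every CH array. Its dimmer probe sets, both near the floor, differed by -0.06 and -0.26. SOX18, a transcription factor of endothelium, read 4.70, 6.26, 4.64, 3.31 and 6.47 in PH, against 6.41, 5.98, 8.78, 7.21 and 6.61 in CH. It fell by 1.92 ± 0.39 (adjusted p = 0.00046), with PH 2 and PH 5 inside the CH range, and the call was lost with the day 16 arrays alone (adjusted p = 0.0902). The defining markers CDH5, VWF and PECAM1 differed by 0.14 ± 0.22, -0.02 ± 0.21 and -0.78 ± 0.26 and did not pass, and the endothelial mean ran from 5.21 to 5.98 in PH and from 5.53 to 6.39 in CH. Whether fewer endothelial cells entered these values was not tested.

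ADAMTS4, EDNRB and ACKR1, which fell, were each highest in CH 1 and CH 3 among the CH arrays. These 3 falls kept their call without any single array and lost it with the day 16 arrays alone. ADAMTS4, a protease that cuts aggrecan, read 5.83, 3.92, 2.96, 3.35 and 3.67 in PH, against 8.14, 5.52, 8.44, 4.43 and 4.54 in CH. It fell by 2.27 ± 0.46 (adjusted p = 0.000589), and by 1.72 without CH 3. EDNRB, an endothelin receptor, read 2.59, 2.74, 2.57, 2.61 and 2.39 in PH, against 5.62, 3.28, 5.36, 2.65 and 2.53 in CH, where CH 1 and CH 3 were high and CH 4 and CH 5 lay near the floor. Its difference was -1.31 ± 0.29 (adjusted p = 0.00159), a lower limit in size, and -0.877 without CH 1. ACKR1, a chemokine-binding receptor of venules, read 4.17, 3.89, 3.70, 2.89 and 2.86 in PH, against 6.24, 3.55, 5.83, 5.57 and 3.50 in CH, a fall of 1.44 ± 0.29 (adjusted p = 0.000552) with overlapping groups. For this gene CH 4 was high as well. The immediate early genes, which respond within minutes to stimulation of a cell, were also high in CH 1 and CH 3. Their list mean was 8.71 in CH 1 and 9.11 in CH 3, against 7.35 to 7.98 in the other CH arrays (7.55 in CH 4), and 7.63 to 8.33 in PH. What part that played in the 3 genes was not tested. Of the 22 immediate early genes 1 rose (4.55%, against 6.52% of all named genes), MCL1 (0.50 ± 0.14, lost without CH 5, PH 1 or PH 4), and none fell.

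Extracellular matrix genes fell in 5 of 53 (9.43%) and rose in 2 (3.77%), against 3.29% and 6.52% of all named genes. Their median was -0.176, and 8 fell without PH 5 against 3 without PH 4. COL3A1, the chain of type III collagen, read 13.34, 13.42, 13.38, 12.99 and 14.21 in PH, against 14.25, 14.01, 14.12, 13.83 and 14.12 in CH. It fell by 0.60 ± 0.12 (adjusted p = 0.000255), and PH 5 lay at the CH level while the other PH arrays lay below all CH arrays. With the day 16 arrays alone the call was lost (adjusted p = 0.056). COL15A1, a basement membrane collagen, fell by 1.21 ± 0.27, and the epithelial integrin ITGA3 rose by 1.08 ± 0.25. In growth factor, Wnt and Notch signalling 3 of 70 rose (4.29%) and 5 fell (7.14%), among them the Notch ligand JAG1 (-1.04 ± 0.24). Among the deepest falls, AIF1L (-1.70 ± 0.40) and the Wnt5a receptor ROR2 (-1.40 ± 0.31) had every PH array below every CH array, and ROR2 lost its call with the day 16 arrays alone. Smooth muscle markers differed by a median of -0.534 with none of 12 past the threshold: the list mean was 7.96, 7.05, 6.96, 6.76 and 7.91 in PH, against 7.87, 8.16, 8.22, 7.98 and 7.33 in CH. PH 1 and PH 5 were high and CH 5 low, so the groups overlapped, and the part of muscle in the matrix values was not tested. Among splicing factors 7 of 61 fell (11.5%, against 3.29% of all named genes), and 3 fell without CH 3 or CH 4. Another 4 rose (6.56%), a share near the 6.52% of all named genes. PRPF6 rose by 1.16 ± 0.23.

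**Figure D4:**
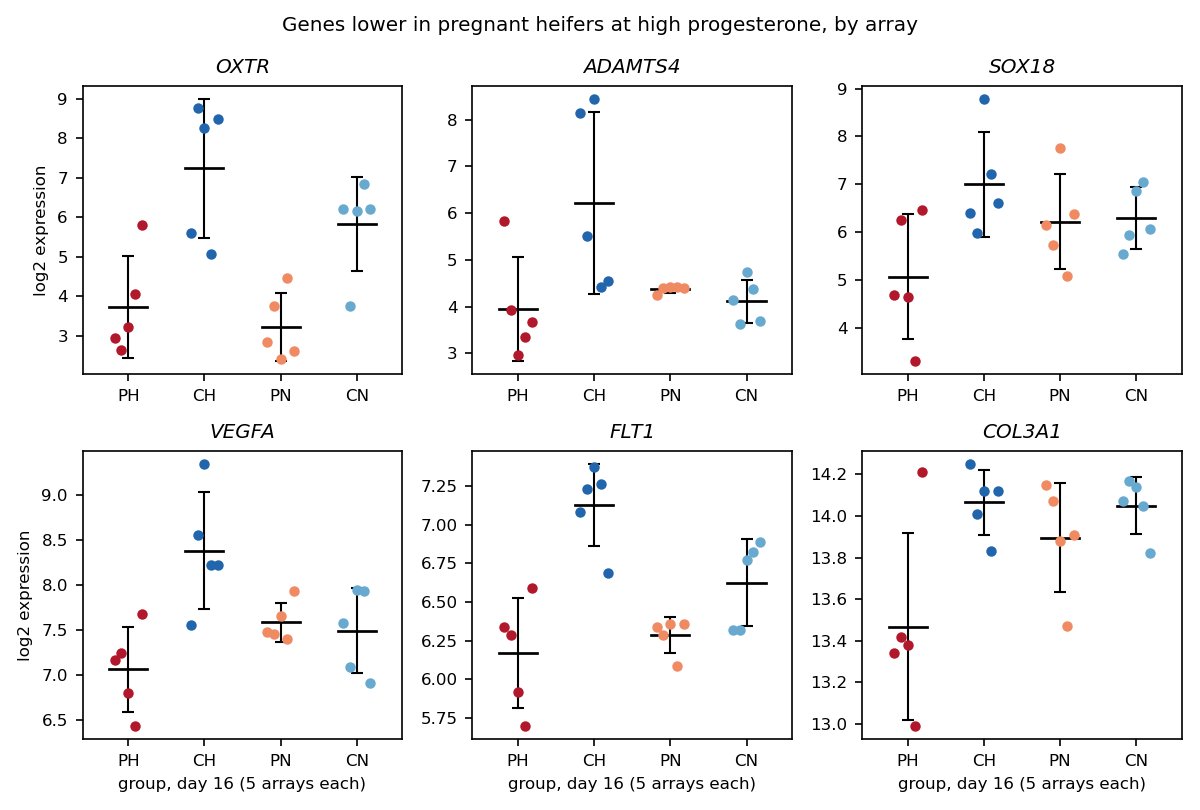
Log2 expression of 6 genes that fell in PH on day 16, in each array of PH, CH, PN and CN (points), with group mean and SD (bars). OXTR lay between 2.64 and 5.82 in PH and between 5.07 and 8.76 in CH, and the ADAMTS4 mean of CH (6.21) stood above those of PN (4.37) and CN (4.11).

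Markers of the conceptus were mostly near the floor. Of 34 trophoblast genes 26 lay under 3 on all 10 arrays, and none was called in limma's test. IFNT2, an interferon tau gene, averaged 1.72 in PH and 1.74 in CH, and the trophoblast kunitz gene TKDP1 2.83 in PH and 2.64 in CH. Hemoglobin HBB averaged 2.66 in PH and 2.72 in CH.

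The same comparison at normal progesterone, PN against CN, called 158 probe sets (0.658%), 146 upward and 12 downward, and 68 and 6 named genes (0.743% and 0.0655%). With the arrays of each contrast alone it called 151, against 120 for PH and CH. It shares no array with PH against CH, so the genes called at high progesterone could be read in it. Of the 56 genes that rose in PH and belong to the interferon and MHC class I lists, 53 were also higher in PN than in CN, with medians of 2.38 at high and 2.25 at normal progesterone, and 39 rose at normal progesterone. These 56 were chosen for their rise in PH: over all 84 measured members of the lists the medians were 1.69 at high and 0.963 at normal progesterone. The MHC class I genes had medians of 0.730 and 0.290, and 10 of 16 rose at high and none at normal progesterone. MX2 read 8.93, 7.64, 9.27, 9.41 and 9.79 in PN, against 2.06, 2.06, 2.05, 2.06 and 2.05 in CN, a difference of at least 6.95 ± 0.99. ISG15 averaged 13.47 ± 0.49 in PN and 7.18 ± 0.56 in CN. Of the 541 risers outside those lists 264 (48.8%) were higher in PN, close to the 46.4% of all named genes outside the lists. Their median was 0.708 at high progesterone and -0.0068 at normal, and 23 of them rose at normal progesterone. Over all 9071 named genes outside the lists, these 23 included, 29 rose there. Of the 300 fallers outside the lists 174 (58.0%) were lower in PN, against 53.6% of all such genes. OXTR averaged 3.23 ± 0.87 in PN and 5.84 ± 1.19 in CN, a difference of -2.61 ± 0.82 that did not pass (adjusted p = 0.205).

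**Figure D5:**
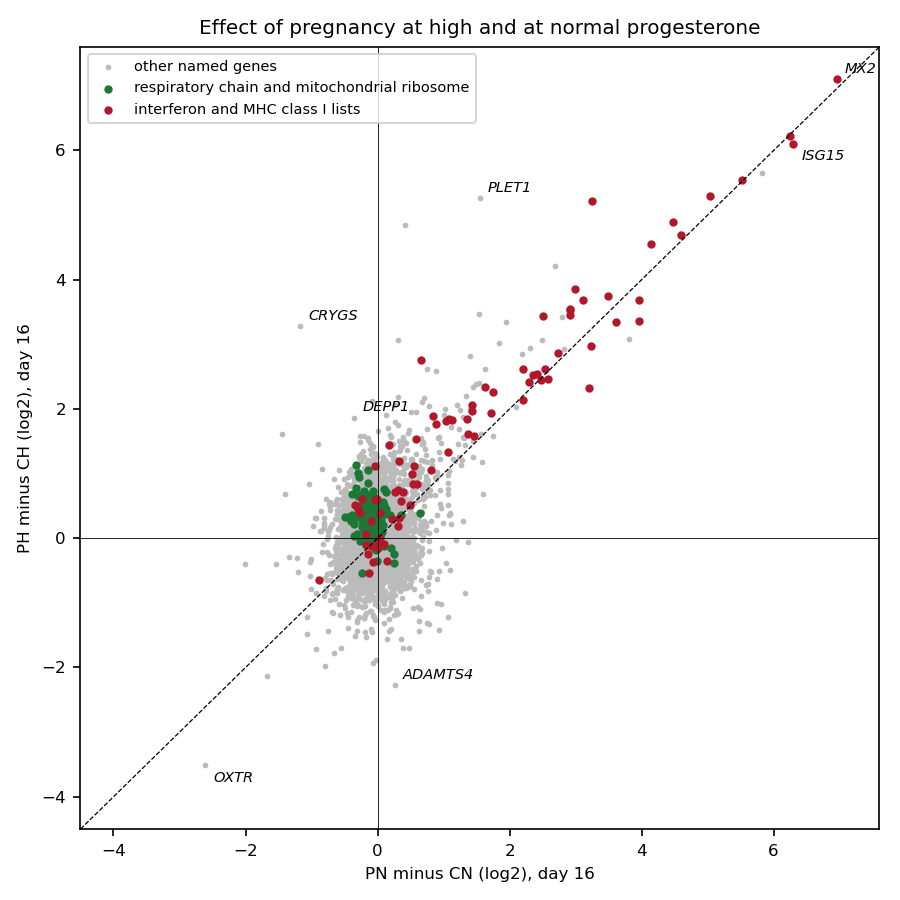
Pregnancy effect of each named gene on day 16 at high progesterone (vertical axis, PH minus CH) against that at normal progesterone (horizontal axis, PN minus CN), both log2, with equality dashed. Interferon and MHC class I genes (red) lie near or above the line, with medians of 1.69 on the vertical and 0.963 on the horizontal axis over all 84, and the respiratory chain and mitochondrial ribosome genes (green) lie mostly above 0 on the vertical axis (67 of 74 and 60 of 67), with medians of -0.128 and -0.103 on the horizontal axis.

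A test of the difference between the 2 pregnancy effects, high minus normal progesterone, called 209 probe sets (0.87%), 149 higher and 60 lower. None of the 84 interferon and MHC class I genes measured was among them in limma's test, and for MX2 the difference of effects was 0.15 ± 1.39. Respiratory chain genes gave 14 higher and mitochondrial ribosome genes 8 higher of 74 and 67, against 1.27% of named genes, and none lower. Their medians at normal progesterone were -0.128 and -0.103. DEPP1, a FOXO-induced gene linked to autophagy in human cells, read 6.79, 5.86, 6.44, 7.14 and 5.91 in PH, against 4.64, 4.30, 4.57, 4.94 and 4.33 in CH, and 4.69, 4.99, 5.30, 5.54 and 5.66 in PN, against 4.84, 5.60, 5.71, 5.99 and 5.80 in CN. PH stood apart above CH, while PN and CN overlapped, and the effects differed by 2.22 ± 0.37 (adjusted p = 0.00145). CRYGS, a crystallin first known from the lens, read 9.95, 8.56, 10.63, 10.75 and 6.19 in PH, against 5.74, 6.44, 5.18, 4.53 and 7.78 in CH, and 8.18, 7.34, 6.72, 10.36 and 5.18 in PN, against 8.68, 9.79, 7.26, 9.69 and 8.26 in CN. CH was lowest of the 4 groups on average and the effects differed by 4.46 ± 1.05 (adjusted p = 0.0261). ATP5F1D (1.23 ± 0.21), MRPL12 (1.46 ± 0.30), PGRMC1 (0.94 ± 0.20), the PI3K inhibitor PIK3IP1 (1.91) and the general transcription factor subunit TAF12 (1.67) had larger effects at high progesterone. Lower were ADAMTS4 (-2.53 ± 0.66), ACKR1 and EDNRB (both -2.06 ± 0.41) and the pyruvate dehydrogenase phosphatase PDP1 (-1.27 ± 0.28). Of the 8 highest and 8 lowest genes of this test, each except DEPP1 lost its call without CH 3, and the count of probe sets was then 3, against 671 without CH 2. The 20 day 16 arrays alone called 9.

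On day 13 the same comparison of PH with CH called 1 probe set (0.00416%), which was lower, and no named gene in limma's test, with 2275 at an unadjusted p under 0.05. Day 13 PH 1 and PH 4 lay farthest from their group mean (SD of deviations 0.497 and 0.522), and PH 1 had a narrow distribution (SD 2.68). Antiviral effectors then had a median difference of 0.358. ISG15 averaged 9.65 ± 2.03 in PH and 7.83 ± 0.59 in CH on day 13, and MX2 3.28 ± 2.28 in PH and 2.17 ± 0.19 in CH. A test of day 16 minus day 13 called 213 probe sets (0.887%), 186 higher and 27 lower, and 14 of the 34 antiviral effectors were higher. IFIT2 grew by 4.48 ± 0.87 (adjusted p = 0.00324), MX2 by 5.99 ± 1.39, XAF1, an interferon-induced promoter of cell death, by 3.18, DHX58 by 3.14 and IRF7 by 3.09 ± 0.65, of which MX2 lost its call without day 16 PH 4 (adjusted p = 0.157). Outside the interferon lists NCDN (3.13) and DEPP1 (1.99 ± 0.37) had larger effects on day 16. The potassium channel KCNMA1 (-1.53) was among the 8 lower named genes (0.0874%), each of which lost its call in single-array omissions. The fit of the 20 arrays of this contrast alone called none, with 1828 at an unadjusted p under 0.05, and the count was 534 without day 16 PH 5, 90 without PH 4, 130 without PH 1 and 110 without day 13 PH 4.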

How the data were processed

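Endometrial RNA of 79 samples was hybridised to Affymetrix bovine arrays, 1 array per sample. The deposited values are log2 expression per probe set; the submitters' processing notes name RMA, GCRMA and limma, without saying which of the first pair made this table, and a genome build is not given in the sources used here. Of 24128 probe sets, 112 controls were left out. Gene symbols, taken from GEO's annotation of the array, were single for 13292 probe sets, several for 86 and missing for 10638, and 13263 gene IDs were found in a RefSeq table that changed 0 symbols.

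Group means of all 16 groups were fitted with limma 3.58.1 (R 4.3.3, statmod 1.5.0, eBayes), p-values were adjusted by Benjamini-Hochberg over 24016 probe sets, and the threshold was 0.05. The fit was tested on simulated data. No further normalization or filter was applied. Tables and plots used Python 3.11.15, pandas 2.3.3 and matplotlib 3.10.9. With arrays as the unit, their number limits the precision.

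A gene was represented by its brightest probe set, and 2913 genes had several. Genes were named by rule: the 14 largest rises and 14 largest falls, up to 5 called members of each of 46 lists, the 8 highest and 8 lowest of each contrast of effects, 3 defining markers per cell type and a few fixed genes. The groups, lists and genes were chosen with earlier results of these data known. Deviations of same-numbered PH and CH arrays correlated between -0.178 and 0.0396, so the numbers were not taken to pair the samples. Alternatives changed the arrays in the fit, normalization, filter, weights, variance moderation and block. A planned count of promoter motifs was not run, since promoter sequences were not used here.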

Additional observations from a re-analysis of the deposited data

Results flagged for a closer look

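Among 88 groups of 5 arrays examined for an array far from the others of its group, 10 held one, and chance gives about 1 in 20. PH 5 stood low in MX2 (5.06), IFIT2 (3.44) and the mean of the complement genes (7.18), and PH 2 stood high in the mean of the trophoblast genes (2.65), near the floor. CH 2 stood high in MX2 (2.74) and NDUFA9 (8.41) and low in IFIT2 (2.76). CH 1 stood high in OAS1X (4.23) and IDO1 (3.73), and CH 3 low in the mean of the antiviral effectors (6.70).

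The pregnancy effect differed between high and normal progesterone, by limma's test of the difference itself, in the 16 genes named for it, of which all but DEPP1 lost the call without CH 3 and with the day 16 arrays alone. It was higher at high progesterone in CRYGS (4.46), GSTA2 (3.05), DEPP1 (2.22), PIK3IP1 (1.91), TLR5 (1.88), MECR (1.85), SLC27A5 (1.68) and TAF12 (1.67). It was lower in ADAMTS4 (-2.53), ACKR1 (-2.06), EDNRB (-2.06), ANKMY2 (-1.58), ZNF668 (-1.53), PDP1 (-1.27), DENND4A (-1.07) and GPAM (-1.06).

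The effect at high progesterone also differed between day 16 and day 13 in 16 genes by the same kind of test. It was higher on day 16 in MX2 (5.99), PLET1 (4.55), IFIT2 (4.48), SAMD9 (4.33), CRYGS (4.07), XAF1 (3.18), DHX58 (3.14) and NCDN (3.13). It was lower in KCNMA1 (-1.53), EDNRB (-1.52), TMEM47 (-1.42), CREB3L2 (-1.24), ATP13A2 (-0.93), BNIP3L (-0.69), FGF11 (-0.60) and CORO6 (-0.58). With the arrays of this contrast alone none of the 16 kept its call. Over 20 omissions of a single array CRYGS lost it in 10, PLET1 and SAMD9 in 4 each and MX2 in 1. The 8 lower genes lost it in 7 to 14, and IFIT2, XAF1, DHX58 and NCDN in none.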

How the results depend on the processing

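Counts of probe sets past the threshold moved with the arrays that set the spread and with array weights. For PH against CH, with 1868 probe sets, the count was 120 with the arrays of the contrast only, 1064 with day 16 arrays only, 7481 with array weights, 3380 without the arrays of narrow distribution on other days, and 2960 without PH 5 and CH 2, an omission chosen after seeing the data. Leaving out single arrays gave 944 to 2578. For high minus normal progesterone (209) these counts were 9, 9, 3291, 351 and 826, and 3 to 671 over single omissions. For day 16 minus day 13 (213) they were 0 with the arrays of the contrast only, 974 with weights and 676 without PH 5 and CH 2. They were 302 without the arrays of narrow distribution, day 13 PH 1 among them, and 90 to 534 over single omissions. For PN against CN (158) they were 151 with the arrays of the contrast only, 88 with day 16 arrays only, 347 with weights and 128 to 186 over single omissions. The median difference of the epithelial markers (0.375) was 0.603 without PH 5 and CH 2 and ran from 0.13 to 0.612 over single omissions, and that of cell junction genes (0.057) was 0.158 and ran from -0.00936 to 0.128. The cause of these shifts was not tested. Quantile normalization, median centring, the filter and trend with robust moderation kept the count for PH against CH within 1.5 times. With the replicate block the counts were 1882, 171, 219 and 158 in the order above. Same-numbered arrays did not deviate together. No result changed direction past the threshold.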

Other observations

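Some further gene lists were read for PH against CH on day 16, where 6.52% of all named genes rose and 3.29% fell. Redox and detoxification genes rose in 6 of 40 (15%) and fell in 1 (2.50%), with the glutathione transferase GSTK1 higher by 0.69. Among 34 cell junction genes 4 rose (11.8%), with NECTIN2 higher by 0.80, and 1 fell (2.94%), the cadherin CDH11 (-1.18). Ion channels and pumps gave 2 risers and 2 fallers of 50 (4.0% each), shares near those of all named genes, the potassium channel KCNMA1 (-1.14) and the calcium pump ATP2A2 (-0.60) being lower. Cholesterol synthesis genes rose in 2 of 20 (10%). Cell cycle genes gave 2 fallers of 39 (5.13%), and DNA replication and repair genes 1 riser (2.56%) and 2 fallers (5.13%) of 39. In these 10 arrays none of 15 stromal markers and 7 erythrocyte markers was called in limma's test on its brightest probe set. For the stromal marker PDGFRA that probe set differed by 0.35 (adjusted p = 0.363), while a dimmer one rose by 1.63 (adjusted p = 0.00349). The dimmest, near the floor, gave -0.02.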
